A study of Mus musculus with 12 samples.

Results

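The SOCS family and Cish were followed in cultured mouse macrophages that carried or lacked Commd1. Their members were the probes that the array files name Socs1, Socs2, Socs3, Socs4, Socs5, Socs6, Socs7 or Cish, or an older name of these genes. Probes were taken by name alone, though the members were chosen with earlier results of these data known. They came to 8 genes and 12 probes out of 31693 gene names and 39429 probes on the array. Socs2 and Socs6 had 3 probes each and the other members 1 each. All 12 probes were well above background on all 12 arrays, so all 8 genes passed the filter on dim probes, as did 22978 genes in all.

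The macrophages were grown from bone marrow for 10 days with GM-CSF at 20 ng/mL. The wildtype cells came from 2 mice and the Commd1 knockout cells from another 2 mice, whose age, strain and way of deletion are not given in the sources used here. The cells of each mouse were divided into a sample left untreated, a sample given lipopolysaccharide (LPS) for 3 h and a sample given it for 24 h, at 10 ng/mL from Escherichia coli. This gave 6 groups of 2 samples, all with GM-CSF, each measured on 1 single-colour array. Samples of 1 mouse share their cells, so replicate 1 and replicate 2 of a genotype are the same 2 mice at every time.

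SOCS proteins and CIS, the product of Cish, are inducible brakes on cytokine signalling through JAK kinases and STAT factors. Each joins an SH2 domain, which docks on phosphotyrosine, to a SOCS box, which recruits elongin B, elongin C and a cullin to form a ubiquitin ligase. In macrophages SOCS1 is known for restraining interferon and LPS signalling, SOCS3 for restraining receptors that signal through gp130, and CIS and SOCS2 for damping STAT5, the factor that GM-CSF activates. COMMD1, the deleted protein, has been placed with the elongin, cullin and SOCS1 ligase that removes the NF-kB subunit RelA from chromatin.

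The 250 bases before the start site are shown for the 3 members with the largest rise after 3 h of LPS, to let their upstream sequences be compared. They are RefSeq sequences on GRCm38.p6, written 5′ to 3′ on the strand of the gene, and matches to the motifs searched are in capitals. The Cish window lies at chr9:107296409-107296658 on the plus strand, the Socs1 window at chr16:10785537-10785786 on the minus strand and the Socs3 window at chr11:117969367-117969616 on the minus strand.
Cish: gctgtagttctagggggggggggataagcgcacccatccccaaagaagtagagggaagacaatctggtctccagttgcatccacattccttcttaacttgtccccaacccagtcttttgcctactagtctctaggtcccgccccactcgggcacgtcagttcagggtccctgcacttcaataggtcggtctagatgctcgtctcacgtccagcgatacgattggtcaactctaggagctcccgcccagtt
Socs1: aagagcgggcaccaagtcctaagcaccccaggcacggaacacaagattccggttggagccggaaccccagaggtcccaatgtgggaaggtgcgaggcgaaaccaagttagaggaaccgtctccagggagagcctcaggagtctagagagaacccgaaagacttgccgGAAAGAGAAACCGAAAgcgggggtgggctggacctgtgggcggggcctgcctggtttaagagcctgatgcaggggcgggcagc
Socs3: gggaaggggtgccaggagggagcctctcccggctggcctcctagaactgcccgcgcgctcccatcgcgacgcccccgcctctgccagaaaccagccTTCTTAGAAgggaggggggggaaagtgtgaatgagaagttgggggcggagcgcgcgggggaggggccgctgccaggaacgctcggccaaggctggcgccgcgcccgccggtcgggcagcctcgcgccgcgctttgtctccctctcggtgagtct
Spelled motifs were searched on both strands, TTCNNNGAA for STAT factors, GAAA with any 2 bases before another GAAA for interferon regulatory factors, and GGG with any 2 bases before TTTCC for NF-kB. The Socs1 window held 2 matches to the interferon motif that overlap each other by 4 bases, GAAAGAGAAA at 83 to 74 bases and GAAACCGAAA at 77 to 68 bases before the start. The Socs3 window held 1 match to TTCNNNGAA, TTCTTAGAA, at 154 to 146 bases before the start. The Cish window held none of the 3 motifs, and neither did that of Socs4, the other member searched. Windows were searched for 4 of 8 members, and 2 of these held a motif. Socs2, Socs5 and Socs7 had no promoter in the table used, and Socs6 was left out of the search, so these counts do not cover them. Windows of the same length held TTCNNNGAA in 7.02%, the interferon motif in 2.98% and the NF-kB motif in 1.41% of 32851 promoters. A match describes the letters of the window and is not a measured site, and no match says only that these letters are not in it.

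Levels are log2 processed signals relative to the 75th percentile of the same array, so a level of 0 is the signal at that percentile, and a difference of 1 is 1 doubling. Probes differ in how well they bind their RNA, so levels are compared between samples of 1 gene and not between genes. Changes are given with the standard error (SE) of limma's fit to all 12 arrays, and a gene is said to have risen, fallen or differed where limma's p, adjusted over all genes tested by the Benjamini-Hochberg method, was under 0.05. The deleted gene was checked before the members. The Commd1 probe read 2.70 to 2.89 on the 6 wildtype arrays and -0.50 to 0.07 on the 6 knockout arrays, with no overlap. Whether that probe lies in the deleted part of the gene was not analysed here.

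The arrays had 59.2% to 72.9% of probes well above background and no saturated probe. All arrays of 1 time lay on 1 slide, so an effect of the slide and one of the LPS time cannot be told apart, and within each slide the genotypes held fixed positions, so genotype and position cannot be told apart. All 6 macrophage markers, among them Adgre1, Csf1r, Cd68, Mertk and Fcgr1, were above background on all 12 arrays. So were 4 of 6 dendritic cell markers and the 5 neutrophil markers measured, as were the B cell marker Cd79a, the T cell marker Cd3e, the erythroid marker Hba-a1 and Kit of the mast cell list. The NK cell marker Ncr1 was above background on 7 arrays, and the T cell marker Cd3g and the mast cell and basophil markers Cpa3 and Fcer1a on no array. In such bulk RNA, fewer cells of a type and less RNA per cell cannot be told apart.

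After 3 h of LPS all 8 members had changed in both genotypes, 6 upward (Socs1, Socs2, Socs3, Socs4, Socs7 and Cish) and 2 downward (Socs5 and Socs6). The same test called 46.6% of all genes in wildtype cells at 3 h (23.2% higher and 23.4% lower) and 52.1% in knockout cells (26.4% and 25.7%). At 24 h, 6 members differed from untreated wildtype cells (4 higher, 2 lower), where 50% of all genes were called (23.6% higher and 26.4% lower). In knockout cells 7 did (4 higher, 3 lower), where 57.6% of all genes were called (26.0% and 31.5%). The median change over the 8 members in wildtype cells was 2.59 at 3 h, where the median over all genes was 0.03, and 0.43 at 24 h, where it was -0.04. In knockout cells the members' median was 2.49 at 3 h and 0.01 at 24 h. Between 3 h and 24 h, 6 members changed in wildtype cells (5 fell and 1 rose), against 52.6% of all genes (25.7% higher and 26.9% lower), and 6 in knockout cells (5 fell and 1 rose), against 59.0% (26.3% and 32.6%). The split of all genes moved with the scaling. Of the genes called, 49.9% and 50.7% were higher at 3 h in wildtype and knockout cells, and 39.0% and 38.8% with the scale set on probes above background on all arrays. At 24 h against untreated, 47.2% and 45.2% were higher, and 64.5% and 64.7% with the normexp background correction, which also gave 59.9% and 57.3% in place of 48.9% and 44.7% for 24 h against 3 h. No member's called change took the opposite direction under these settings.

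**Figure D1:**
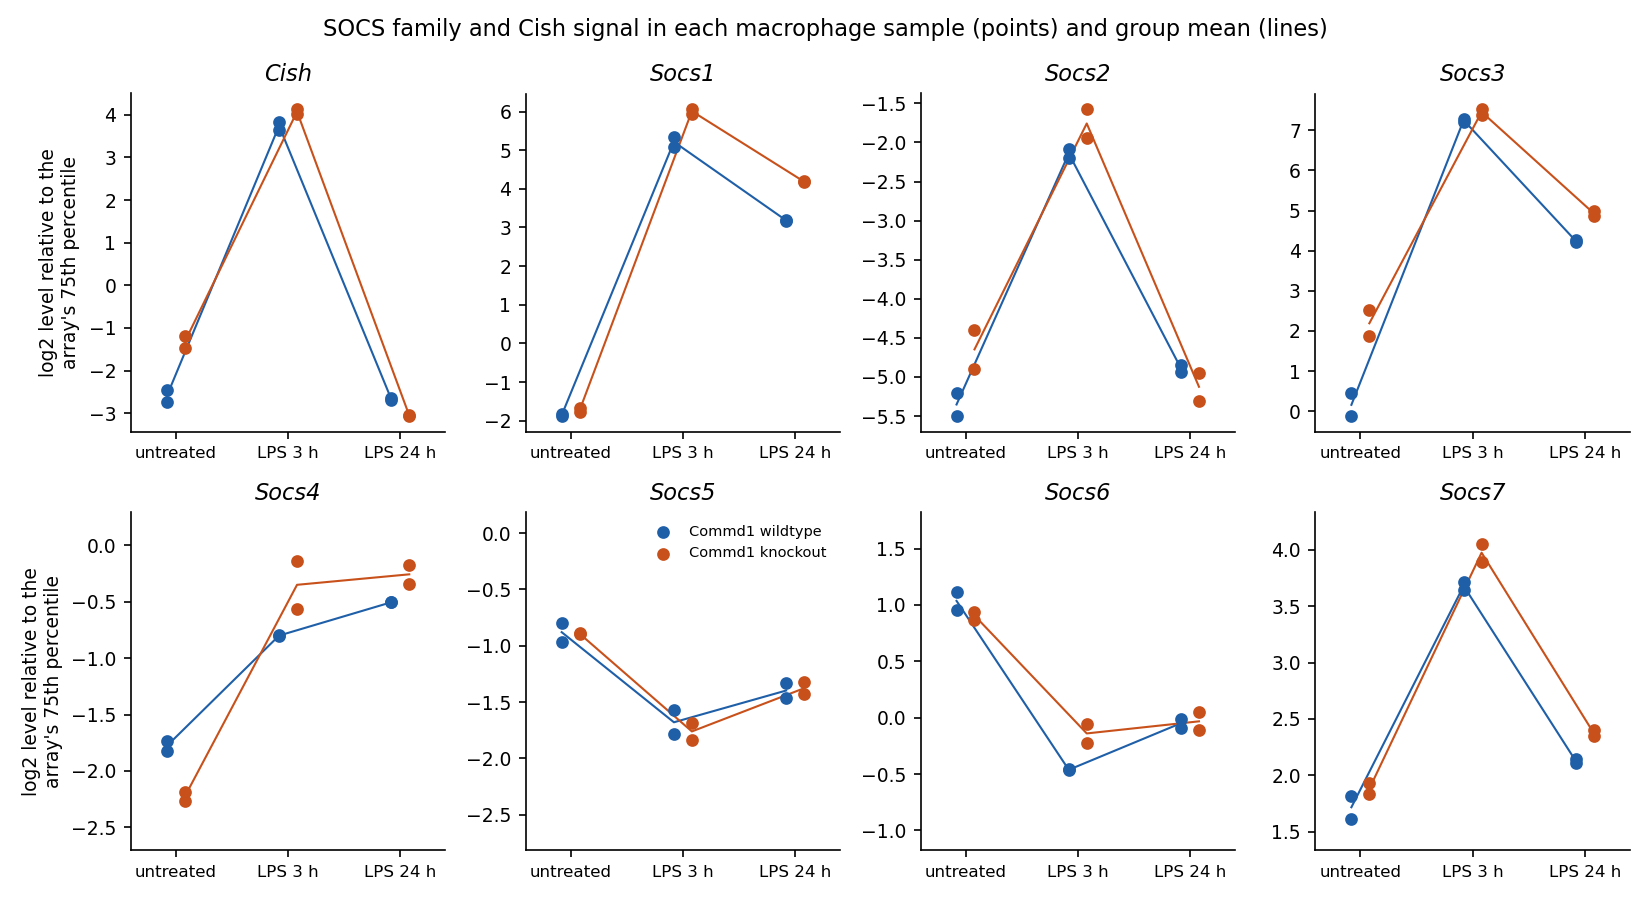
Level of each member in every sample, as the log2 processed signal relative to the array's 75th percentile (vertical axis, which differs between panels) for untreated cells and after 3 h and 24 h of LPS. Points are single samples, 2 per group, and lines join the group means of wildtype (blue) and Commd1 knockout (orange) cells. Cish and Socs2 peak at 3 h and lie near or below the untreated level at 24 h, Socs1 and Socs3 stay high, and Socs5 and Socs6 fall.

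Cish, whose protein CIS is induced by STAT5 and damps it, gave a short pulse. Its level in wildtype replicates 1 and 2 was -2.46 and -2.73 untreated, 3.64 and 3.84 at 3 h, and -2.70 and -2.64 at 24 h. In knockout replicates 1 and 2 it was -1.19 and -1.46 untreated, 4.14 and 4.01 at 3 h, and -3.07 and -3.03 at 24 h. In wildtype cells the 24 h samples lay between the untreated ones, whereas in knockout cells they lay below both untreated samples. Cish rose by 6.33 ± 0.13 (SE, n = 2 per group), or 80.6-fold, in wildtype cells at 3 h (adjusted p = 2.04e-08) and by 5.40 ± 0.13 in knockout cells (adjusted p = 3.28e-08). At 24 h the change from untreated was -0.08 ± 0.13 in wildtype cells (adjusted p = 0.665, 95% confidence interval -0.38 to 0.23), and 0.06 with the normexp background correction. Knockout cells fell by 1.73 on the log2 scale at 24 h (adjusted p = 1.21e-05). The order of the 6 groups ran from knockout at 24 h through wildtype at 24 h and untreated wildtype, which overlapped, to untreated knockout and then both 3 h groups, wildtype below knockout.

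Socs2, another STAT5-induced member that also restrains growth hormone signalling, followed the same course at a smaller size. Its probe with the highest mean, printed in 10 spots per array, read -5.20 and -5.50 in untreated wildtype, -2.08 and -2.20 at 3 h and -4.85 and -4.94 at 24 h. In knockout cells it read -4.39 and -4.90 untreated, -1.57 and -1.94 at 3 h and -4.95 and -5.30 at 24 h. The 3 h samples were the highest of their genotype. At 3 h the scaled levels of the genotypes did not overlap, but limma did not call their gap (0.38 ± 0.21, adjusted p = 0.294). The unscaled processed signals did overlap, at 559 and 473 in wildtype and 653 and 513 in knockout samples. Socs2 rose by 3.21 ± 0.21 in wildtype cells (9.25-fold, adjusted p = 5.41e-06) and by 2.89 ± 0.21 in knockout cells (adjusted p = 7.04e-06). At 24 h both wildtype mice were above their own untreated sample, by 0.35 and 0.57, and both knockout mice were below theirs, by -0.55 and -0.40. Neither change passed the test in the fit without mice (0.46 ± 0.21 with adjusted p = 0.0984, and -0.48 ± 0.21 with adjusted p = 0.0798), while both did with the mouse as a fixed replicate block (adjusted p = 0.0067 and 0.0047) and neither with it as a random one (adjusted p = 0.064 and 0.0507). With the normexp background correction the knockout change was 0.08 (adjusted p = 0.64), so its direction depended on that choice. The wildtype rise depended on the scaling between arrays, since the unscaled processed signal fell from 68.5 to 60.5 and from 60.1 to 56.6. The signal was also dim: the lowest level well above background on the 2 knockout 24 h arrays was -5.88 and -6.45. The wildtype change also passed with quantile normalization (0.49, adjusted p = 0.0464), with the normexp background correction (0.51, adjusted p = 0.00998) and with the wildtype groups fitted alone (adjusted p = 0.0487). The knockout change passed without replicate 2 of the untreated knockout group (-0.73, adjusted p = 0.0272), with the scale set on probes above background everywhere (-0.60, adjusted p = 0.0381) and with the mean of the 3 probes (-0.68, adjusted p = 0.0328).

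Socs1, which binds JAK kinases and blocks them directly, rose and stayed up. Its level was -1.83 and -1.89 in untreated wildtype, 5.09 and 5.35 at 3 h and 3.20 and 3.16 at 24 h. In knockout cells it was -1.79 and -1.67 untreated, 6.07 and 5.95 at 3 h and 4.17 and 4.20 at 24 h. After LPS each knockout sample was above both wildtype samples of its time, and the untreated knockout samples were only slightly above the wildtype ones. Wildtype cells rose by 7.07 ± 0.10 at 3 h (135-fold, adjusted p = 6.56e-09) and remained 5.04 ± 0.10 above untreated at 24 h (32.9-fold, adjusted p = 2.67e-08). Knockout cells rose by 7.74 ± 0.10 at 3 h (adjusted p = 4.73e-09) and by 5.91 ± 0.10 at 24 h (adjusted p = 1.85e-08). From 3 h to 24 h the level fell by 2.03 in wildtype and by 1.82 in knockout cells on the log2 scale. From lowest to highest the groups were untreated wildtype, untreated knockout, wildtype 24 h, knockout 24 h, wildtype 3 h and knockout 3 h, and the 2 untreated groups did not differ beyond their error (0.13 ± 0.10, adjusted p = 0.484).

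Socs3, a JAK inhibitor that acts on receptors containing gp130, had the same shape from a higher start in knockout cells. It read 0.45 and -0.12 in untreated wildtype, 7.21 and 7.29 at 3 h and 4.26 and 4.22 at 24 h. Knockout samples read 2.52 and 1.86 untreated, 7.53 and 7.38 at 3 h and 4.98 and 4.88 at 24 h. The genotypes did not overlap at any of the 3 times on this scale, and the gap was widest before LPS. Wildtype cells rose by 7.09 ± 0.23 at 3 h (136-fold, adjusted p = 1.38e-07) and stood 4.08 ± 0.23 above untreated at 24 h (adjusted p = 3.36e-06). Knockout cells rose by 5.26 ± 0.23 at 3 h (38.4-fold, adjusted p = 4.96e-07) and stood 2.74 ± 0.23 above untreated at 24 h (adjusted p = 2.19e-05). The order was untreated wildtype, untreated knockout, wildtype 24 h, knockout 24 h, wildtype 3 h and knockout 3 h, with the 2 groups at 3 h closest (0.21 ± 0.23, adjusted p = 0.622, and -0.0029 with quantile normalization).

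Socs4 and Socs5 are close relatives that act on the epidermal growth factor receptor, and they moved in opposite directions. Socs4 was -1.82 and -1.73 in untreated wildtype, -0.80 and -0.80 at 3 h and -0.51 and -0.50 at 24 h, and in knockout cells it was -2.19 and -2.27, then -0.14 and -0.56, then -0.34 and -0.17. Its scaled mean was highest at 24 h in wildtype cells, while the knockout mice went different ways from 3 h to 24 h, by -0.20 and 0.39. Socs4 rose in wildtype cells by 0.98 ± 0.14 at 3 h (adjusted p = 0.000459) and 1.27 ± 0.14 at 24 h (adjusted p = 0.000115), and in knockout cells by 1.88 ± 0.14 and 1.97 ± 0.14 (adjusted p = 7.01e-06 and 6.74e-06). The step from 3 h to 24 h was 0.30 ± 0.14 in wildtype (adjusted p = 0.0992) and 0.09 ± 0.14 in knockout cells (adjusted p = 0.58). The wildtype step depended on the scaling between arrays, since the unscaled processed signal fell from 1359 to 1225 and from 1251 to 1223. Replicates of knockout at 3 h were 0.43 apart, and without either of them the wildtype step passed the test (adjusted p = 0.0236), as it did with the wildtype groups fitted alone (adjusted p = 0.0134). Without replicate 1 of that group the knockout step was 0.31 (adjusted p = 0.0457) and without replicate 2 it was -0.12 (adjusted p = 0.378), so its direction rested on single arrays.

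Socs5 was -0.79 and -0.97 in untreated wildtype, -1.57 and -1.79 at 3 h and -1.33 and -1.46 at 24 h. In knockout cells it was -0.90 and -0.89, then -1.69 and -1.83, then -1.43 and -1.32. The genotypes overlapped at every time. It fell by 0.80 and 0.87 on the log2 scale at 3 h in wildtype and knockout cells (adjusted p = 0.000476 and 0.000223) and was still lower at 24 h, by -0.52 and -0.48 (adjusted p = 0.0049 and 0.00574). The return from 3 h to 24 h passed the test in knockout cells (0.38 ± 0.11, adjusted p = 0.0166), though not without replicate 2 at 3 h (0.31, adjusted p = 0.0856), without replicate 2 at 24 h (0.33, adjusted p = 0.0725) or with the knockout groups fitted alone (adjusted p = 0.102). In wildtype cells it was 0.28 ± 0.11 (adjusted p = 0.0623). It depended there on the scaling between arrays, since the unscaled processed signal fell from 795 to 692 and from 633 to 628. In knockout replicates 1 and 2 the unscaled signal went from 602 to 580 and from 554 to 624. That wildtype return passed with the mouse as a replicate block (adjusted p = 0.045 as a random and 0.0386 as a fixed term) and without replicate 1 at 3 h (0.39, adjusted p = 0.0497).

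Socs6 and Socs7 are relatives that bind insulin receptor substrates and, for SOCS6, the KIT receptor, and they also moved apart. Socs6 fell from 1.12 and 0.96 in untreated wildtype to -0.46 and -0.47 at 3 h, and stood at -0.01 and -0.09 at 24 h. In knockout cells it went from 0.87 and 0.94 to -0.05 and -0.22 and then 0.05 and -0.11. All LPS samples lay below all untreated samples. The fall was 1.50 in wildtype (2.83-fold, adjusted p = 6.91e-06) and 1.05 in knockout cells at 3 h (adjusted p = 4.13e-05), and at 24 h the differences were -1.08 ± 0.10 and -0.94 ± 0.10 (adjusted p = 5.76e-05 and 8.67e-05). Socs6 rose again by 0.41 ± 0.10 from 3 h to 24 h in wildtype cells on this probe (adjusted p = 0.00884). Its size depended on the scaling between arrays, since the unscaled processed signal went only from 1721 to 1730 and from 1578 to 1629. That rise was not called on the other 2 probes (0.09 and 0.11, adjusted p = 0.506 and 0.657), on the mean of all 3 (0.20, adjusted p = 0.192) or without replicate 1 of wildtype at 24 h (0.37, adjusted p = 0.0598). In knockout cells the step was 0.11 ± 0.10 (adjusted p = 0.39), and 0.33 on probe A_52_P135421 (adjusted p = 0.0237).

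Socs7 pulsed like Cish but did not return fully on the scaled levels. It read 1.82 and 1.62 in untreated wildtype, 3.64 and 3.72 at 3 h and 2.14 and 2.11 at 24 h, and in knockout cells 1.93 and 1.83, then 4.06 and 3.89, then 2.35 and 2.40. It rose by 1.96 ± 0.10 in wildtype (3.90-fold, adjusted p = 1.38e-06) and by 2.09 ± 0.10 in knockout cells (adjusted p = 7.54e-07) at 3 h. At 24 h it was 0.41 ± 0.10 above untreated in wildtype (adjusted p = 0.00903) and 0.49 ± 0.10 in knockout cells (adjusted p = 0.003). The wildtype change at 24 h was 0.31 without replicate 2 of untreated wildtype and 0.39 without replicate 1 at 24 h, and its call was lost in both fits. It also depended on the scaling between arrays, since the unscaled processed signal in wildtype fell from 8879 to 7674 and from 8355 to 7475. The knockout change at 24 h depended on it too. Unscaled, knockout replicates 1 and 2 went from 9124 to 7954 and from 8179 to 8237.

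**Figure D2:**
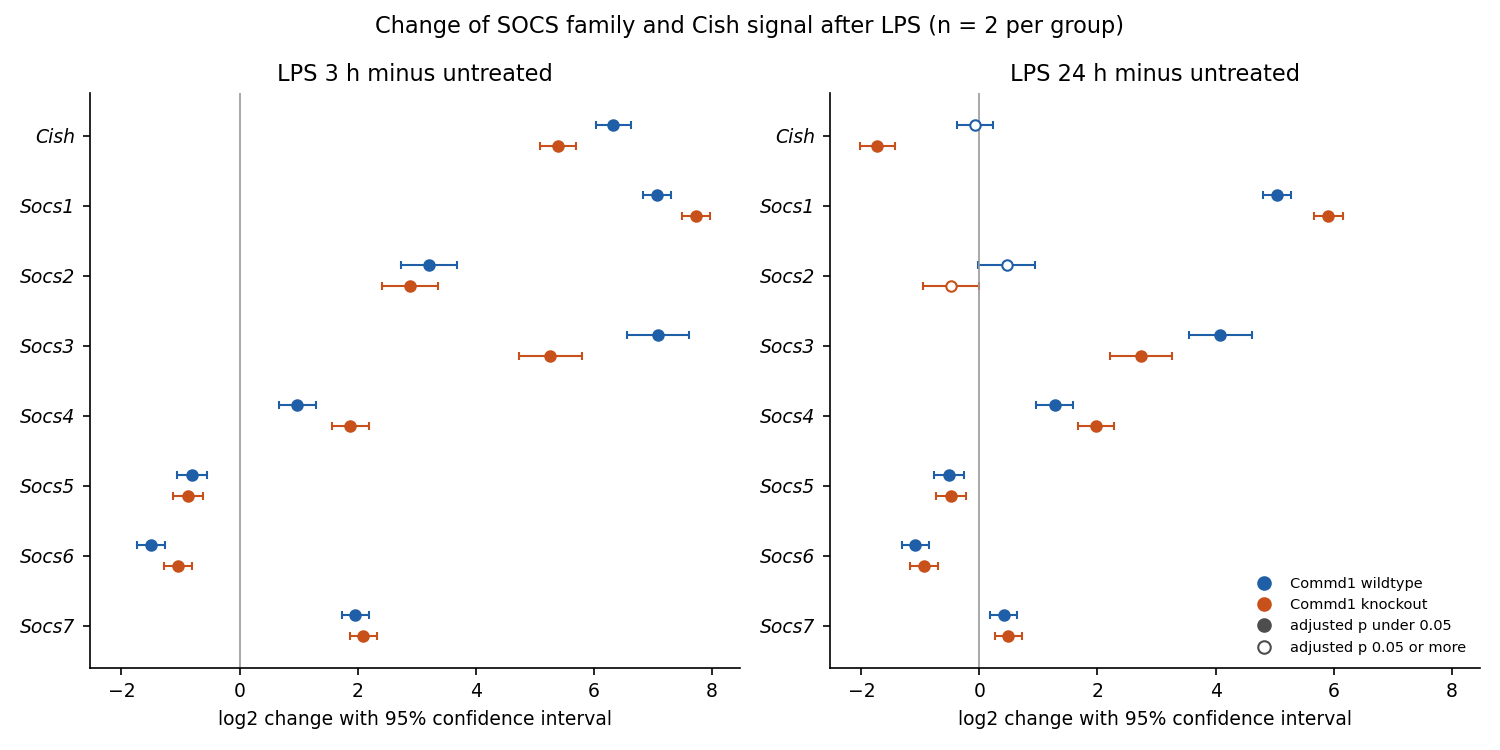
Change of each member after 3 h (left) and 24 h (right) of LPS, as log2 treated minus untreated on the horizontal axis, in wildtype (blue) and knockout (orange) cells, with 95% confidence intervals from limma (n = 2 per group). Filled points have adjusted p under 0.05. At 3 h all 16 points are filled; at 24 h Cish is near 0 (-0.08) in wildtype and at -1.73 in knockout cells, and Socs2 is open in both.

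The separate probes gave the same picture of Socs2 and Socs6 at 3 h. On the 3 Socs2 probes the wildtype rise at 3 h was 3.21, 3.22 and 2.73 and the knockout rise 2.89, 2.43 and 2.33. At 24 h the third of them, A_55_P1992838, read -0.05 in wildtype and -1.04 in knockout cells, where the first read 0.46 and -0.48. On the 3 Socs6 probes the wildtype change at 3 h was -1.50, -1.52 and -1.63 and the knockout change -1.05, -1.53 and -1.39. At 24 h the Socs6 changes ran from -1.52 to -1.08 in wildtype and from -1.19 to -0.94 in knockout cells. The probes of a gene therefore moved the same way with LPS at 3 h in both genotypes, and among the LPS changes from untreated the wildtype Socs2 value at 24 h was the one whose sign differed between probes. Between genotypes, the Socs2 gap at 24 h was -0.23 on the main probe and 0.21 on A_55_P1992834, and the Socs6 gap at 3 h 0.32 on the main probe and -0.08 on A_52_P135421, none of them called.

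**Figure D3:**
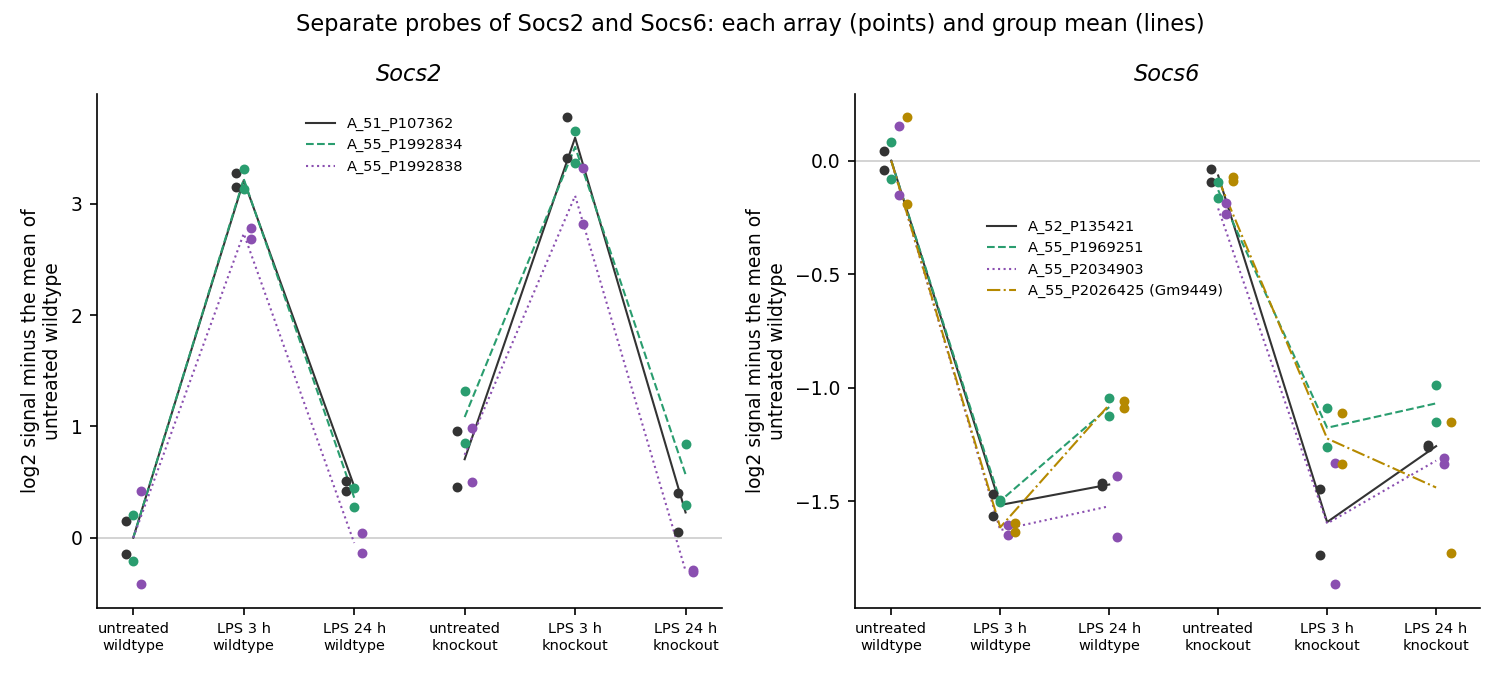
Separate probes of Socs2 (left) and Socs6 (right): log2 signal minus that probe's mean in untreated wildtype cells (vertical axis) in the 6 groups, with single samples as points and group means as lines. The Socs6 panel also shows a probe named for Gm9449, a predicted gene similar to Socs6. All 3 Socs2 probes peak at 3 h, by 2.73 to 3.22 in wildtype, and all Socs6 probes fall.

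By genomic position in mm9, the build in the array files, the Cish probe lies at chr9:107204196-107204255, that of Socs1 at chr16:10783951-10784010, of Socs3 at chr11:117827480-117827539 and of Socs4 at chr14:47911161-47911220. The main Socs2 probe lies at chr10:94875066-94875125, that of Socs5 at chr17:87536500-87536559, that of Socs7 at chr11:97259763-97259822 and that of Socs6 at chr18:89038580-89038639. Which exon or UTR each probe falls in was not analysed here.

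Before LPS, knockout cells held more Socs3 and Cish RNA than wildtype cells, and these were the only 2 of the 8 members that differed, where 6.84% of all genes did. The gap in Socs3 was 2.03 ± 0.23 (4.09-fold, adjusted p = 0.0056, higher in 2 of 2 knockout samples) and that in Cish 1.27 ± 0.13 (2.41-fold, adjusted p = 0.00435, higher in 2 of 2). With the untreated groups fitted alone neither passed (adjusted p = 0.124 for Socs3 and 0.114 for Cish). Socs2 was higher by 0.70 ± 0.21 on its main probe (adjusted p = 0.0817) and by 1.08 on probe A_55_P1992834 (adjusted p = 0.0366), and its main probe passed where only probes above background on all arrays were tested (adjusted p = 0.0469). Socs4 was -0.45 ± 0.14 (adjusted p = 0.0858), and passed without replicate 1 or replicate 2 of the knockout 3 h group (adjusted p = 0.0266). For Socs1, Socs5, Socs6 and Socs7 the 95% confidence intervals of the gap were -0.11 to 0.37, -0.27 to 0.24, -0.36 to 0.10 and -0.06 to 0.39.

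Some summed levels of cell markers and the arrays' spike-in response differed between the untreated genotypes too. The log2 of the summed levels of the dendritic cell markers that passed the filter ran from 2.55 to 2.66 in wildtype samples and from 1.59 to 1.70 in knockout samples, and that of the macrophage markers 7.91 to 8.06 and 8.23 to 8.28. For the mast cell and basophil markers it was -3.35 to -2.97 and -4.73 to -4.30, a sum over Kit, above background on all 12 arrays, and Mcpt8, above it on 3, with Cpa3 and Fcer1a above it on none. The neutrophil markers summed to 4.45 to 4.54 and 4.36 to 4.40, with a median gap of -1.04 over the 5 measured, of which 1 was called lower. Over the 6 dendritic cell markers the median gap was only -0.06, with 1 called lower, so their sum does not describe the whole list. Over the 6 macrophage markers it was 0.31, with 1 called higher. The log2 slope of the spike-in controls, as the scanner software gives it, was 0.736 to 0.743 on untreated wildtype and 0.794 to 0.797 on untreated knockout arrays. The part of these in the Socs3 and Cish gaps was not tested.

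After LPS the genotype gap passed the test for Socs1 and for no other member. At 3 h, Socs1 was higher in knockout cells by 0.79 ± 0.10 (1.73-fold, adjusted p = 0.0402, 2 of 2 samples), where 1.68% of all genes differed. That call was lost when any of 8 arrays was left out: either untreated wildtype array (adjusted p = 0.0699), either untreated knockout array (0.0637), replicate 1 of wildtype 3 h (gap 0.66, adjusted p = 0.13), replicate 1 of knockout 3 h (gap 0.73, adjusted p = 0.13) or either wildtype 24 h array (adjusted p = 0.0872). It was also lost without a filter on dim probes (adjusted p = 0.0944) and with the 3 h groups fitted alone (adjusted p = 0.225). At 24 h the Socs1 gap was 1.00 ± 0.10 (2.00-fold, adjusted p = 0.00927, 2 of 2 samples), where 2.39% of all genes differed. The 24 h call was kept without any 1 array and lost with the 24 h groups fitted alone (adjusted p = 0.105).

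Of the other members at 3 h, the gap was 0.45 ± 0.14 in Socs4 (adjusted p = 0.101), 0.33 ± 0.13 in Cish (adjusted p = 0.173), 0.32 ± 0.10 in Socs6 (adjusted p = 0.111, but 0.09 on the mean of its probes and -0.08 on A_52_P135421) and 0.29 ± 0.10 in Socs7 (adjusted p = 0.128). The Socs4 gap passed without replicate 2 of knockout 3 h (0.66, adjusted p = 0.0155) and with the normexp background correction (0.50, adjusted p = 0.0472). At 24 h, Socs3 was 0.69 ± 0.23 higher in knockout cells (adjusted p = 0.143), and Cish differed by -0.38 ± 0.13 (adjusted p = 0.149). At 3 h the neutrophil markers, summed likewise, were 4.14 in both wildtype samples and 3.60 to 3.81 in knockout samples, and at 24 h the summed dendritic cell markers were 1.39 to 1.51 and 1.09 to 1.20. Taken singly, 0 of the 5 neutrophil markers measured were called at 3 h (median gap -0.57). At 24 h, 0 of the 6 dendritic cell markers were called (median gap 0.001). The other lists just given had no called marker at those times either, where 1.68% (3 h) and 2.39% (24 h) of all genes were called. The spike-in slope was 0.743 on both wildtype and 0.798 on both knockout arrays at 3 h, and 0.820 to 0.824 and 0.842 to 0.870 at 24 h. The part of these in the Socs1 gap was not tested.

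**Figure D4:**
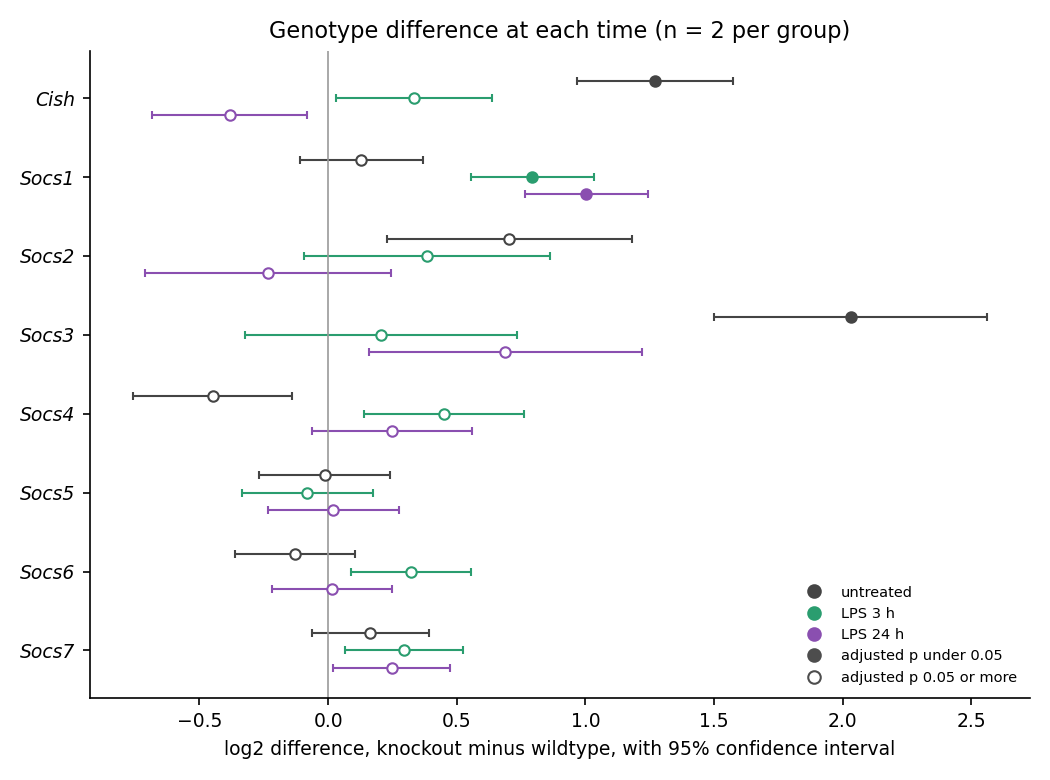
Genotype gap of each member as log2 knockout minus wildtype (horizontal axis) in untreated cells and after 3 h and 24 h of LPS, with 95% confidence intervals from limma (n = 2 per group) and filled points for adjusted p under 0.05. Socs3 (2.03) and Cish (1.27) stand apart before LPS and Socs1 after it, at 0.79 and 1.00.

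The LPS response itself was compared between genotypes through the interaction of time and genotype. At 3 h, limma called 0 of 8 members, with 5 at an unadjusted p under 0.05, and 8 of all genes (0.0348%). The response of Socs3 differed by -1.83 ± 0.33 (knockout minus wildtype, adjusted p = 0.101), that of Cish by -0.94 ± 0.19 (adjusted p = 0.117), that of Socs4 by 0.90 ± 0.19 (adjusted p = 0.126) and that of Socs1 by 0.66 ± 0.15 (adjusted p = 0.133). With the normexp background correction 2 passed, Socs3 (-1.76) and Cish (-0.92), both at adjusted p = 0.0453. Socs3 also passed where only probes above background on all arrays were tested (adjusted p = 0.0488) and without replicate 2 of untreated knockout (-2.15, adjusted p = 0.0457). Socs4 passed without replicate 2 of knockout 3 h (1.11, adjusted p = 0.0252).

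At 24 h limma called 1 of 8 members, Cish, where 0.326% of all genes were called. Its response was -1.65 ± 0.19 lower in knockout than in wildtype cells (adjusted p = 0.0299). Each knockout mouse had fallen, by -1.88 and -1.57 from its own untreated sample, while the wildtype mice had moved by -0.24 and 0.09. The call was lost without replicate 2 of untreated wildtype (-1.52, adjusted p = 0.0615), replicate 1 of untreated knockout (-1.52, adjusted p = 0.084), either wildtype 3 h array (adjusted p = 0.0616), or replicate 1 or 2 of wildtype 24 h (-1.68 and -1.63, adjusted p = 0.0712 and 0.0647). It was lost too without a filter on dim probes (adjusted p = 0.0758) and with the groups compared fitted alone (adjusted p = 0.091). The part of the cell markers above, some of whose sums differed between untreated genotypes, in this Cish value was not tested.

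The Socs1 response at 24 h was larger in knockout cells by 0.87 ± 0.15, just outside the threshold (adjusted p = 0.0599). It passed with the mouse as a random replicate block (adjusted p = 0.042), with normexp (0.83, adjusted p = 0.031), with the deposited value table (0.89, adjusted p = 0.0404) and where only probes above background on all arrays were tested (adjusted p = 0.0312). For Socs2, whose mice moved in opposite directions in the genotypes on the scaled main probe without normexp, the difference was -0.94 ± 0.29 (adjusted p = 0.205), and it passed with the mouse as a fixed replicate block (adjusted p = 0.0479). The Socs3 response differed by -1.34 ± 0.33 (adjusted p = 0.123) and that of Socs4 by 0.70 ± 0.19 (adjusted p = 0.16). Of Socs5, Socs6 and Socs7, the 95% confidence intervals were -0.33 to 0.39, -0.18 to 0.48 and -0.24 to 0.41.

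Because the 3 arrays of a mouse are not independent, the genotype gap was also fitted over the 4 mouse means. Over these means limma called 0 of 22978 genes, with 5537 at an unadjusted p under 0.05 and a smallest adjusted p of 0.132. Socs1 was higher by 0.64 ± 0.06 (adjusted p = 0.132), Socs3 by 0.98 ± 0.14 (adjusted p = 0.133) and Cish by 0.41 ± 0.07 (adjusted p = 0.134) in knockout mice. Commd1 itself differed by -2.99 ± 0.19 with the same smallest adjusted p and was not called. With the normexp background correction the same fit over 2 mice per genotype called 275 genes, so the count depended on that choice.

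Across the 12 arrays the members fell into courses that resembled each other to different degrees. These correlations describe 12 points that share mice, slides and the large LPS step, and they carry no test. Cish and Socs2 had Pearson r of 0.99, Socs2 and Socs7 0.96 and Socs1 and Socs3 0.95. Socs1 and Socs5 ran opposite, with r of -0.96, and the r closest to 0 was that of Cish and Socs4, at 0.25. Among 14634 genes compared, the course most like that of Socs3 was that of Irf1, an interferon regulatory factor (r = 0.998), before Nod2, a sensor of bacterial peptidoglycan (0.994), and Nfkbia, which encodes the NF-kB inhibitor IkB alpha (0.989). Cish was most like Tlr2, the lipoprotein receptor (0.997), Icosl (0.996) and Tnfaip2 (0.996), and Socs1 most like 4930453N24Rik (0.998), the potassium channel gene Kcnn3 (0.998) and Herc6 (0.997). Socs2 was most like Gramd1a, Mtmr14 and Nfkb1 (0.992, 0.991 and 0.991), and Socs7 most like Tagap, Orai2-ps and Wdr92 (0.998, 0.996 and 0.995). The nearest to Socs4 were Crybg1, Klf6 and Plekha2 (all 0.989), to Socs5 Sgpp1, Mospd1 and Zfp747 (0.984, 0.983 and 0.983) and to Socs6 Dgkd, Zfp318 and Trim16 (0.982, 0.979 and 0.977).

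The genes that work with the members were read from 8 lists. Their counts in wildtype cells stand against 23.2% of all genes called higher and 23.4% lower at 3 h, and 23.6% and 26.4% at 24 h. Of the 6 SOCS box ligase partners, 2 rose and none fell in wildtype cells at 3 h by limma, with a median change of 0.28. The elongin C gene Eloc rose by 0.49 ± 0.14 and the scaffold gene Cul2 by 0.87 ± 0.11. Cul5, the cullin of the SOCS ligases, changed by 0.27 ± 0.12 (adjusted p = 0.106) and Elob by 0.27 ± 0.12 (adjusted p = 0.0869). At 24 h, 2 of the 6 rose, among them Eloc (0.69 ± 0.14), and Rnf7, the RING subunit that pairs with Cul5, fell by 0.35 on the log2 scale. No partner differed between genotypes at any of the 3 times by limma, where 6.84% (untreated), 1.68% (3 h) and 2.39% (24 h) of all genes did. In knockout cells 3 partners rose and 1 fell at 3 h, and 4 rose and 1 fell at 24 h, where 26.4% of all genes were called higher and 25.7% lower at 3 h and 26.0% and 31.5% at 24 h. Cul2 rose by 1.08 ± 0.11 at 3 h there, and Eloc rose by 1.18 ± 0.14 and Rbx1 by 1.03 ± 0.10 at 24 h.

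Of 26 other SOCS box genes, 20 were measured, and in wildtype cells 5 rose and 8 fell at 3 h, and 3 rose and 6 fell at 24 h. Spsb1, which encodes a SOCS box protein that targets inducible nitric oxide synthase, rose by 1.21 ± 0.12 at 3 h. Asb11 was 1.63 ± 0.30 higher at 24 h. Asb4 was lower by -2.98 ± 0.22 at 24 h, and Rab40b was lower by at least 2.77-fold at 3 h and at least 2.38-fold at 24 h, since it was not well above background on any wildtype LPS array.

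Of the JAK kinases, the direct targets of SOCS1 and SOCS3, 2 of 4 rose in wildtype cells at each time. Jak2 rose by 3.72 ± 0.13 at 3 h and was 1.75 ± 0.13 above untreated at 24 h, and by 4.08 ± 0.13 and 1.82 ± 0.13 in knockout cells. Tyk2 rose at 24 h (0.78 ± 0.19). Among 7 STAT genes, 5 rose and none fell at 3 h in wildtype cells, and 3 rose and 2 fell at 24 h. Stat5a, which acts downstream of GM-CSF, rose by 3.66 ± 0.13 at 3 h and read -0.31 ± 0.13 at 24 h (adjusted p = 0.0871), a pulse like that of Cish. Stat5b went up by 0.63 ± 0.13 and then to -0.42 ± 0.13. Stat2, which acts in interferon signalling, was 1.93 ± 0.15 higher at 3 h and 3.12 ± 0.15 higher at 24 h. Stat3, which gp130 receptors activate, rose by 1.38 ± 0.16 and 0.97 ± 0.16 and was 0.70 higher in untreated knockout than wildtype cells (adjusted p = 0.0418). Stat4 was lower at 24 h by -2.30 ± 0.20.

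**Figure D5:**
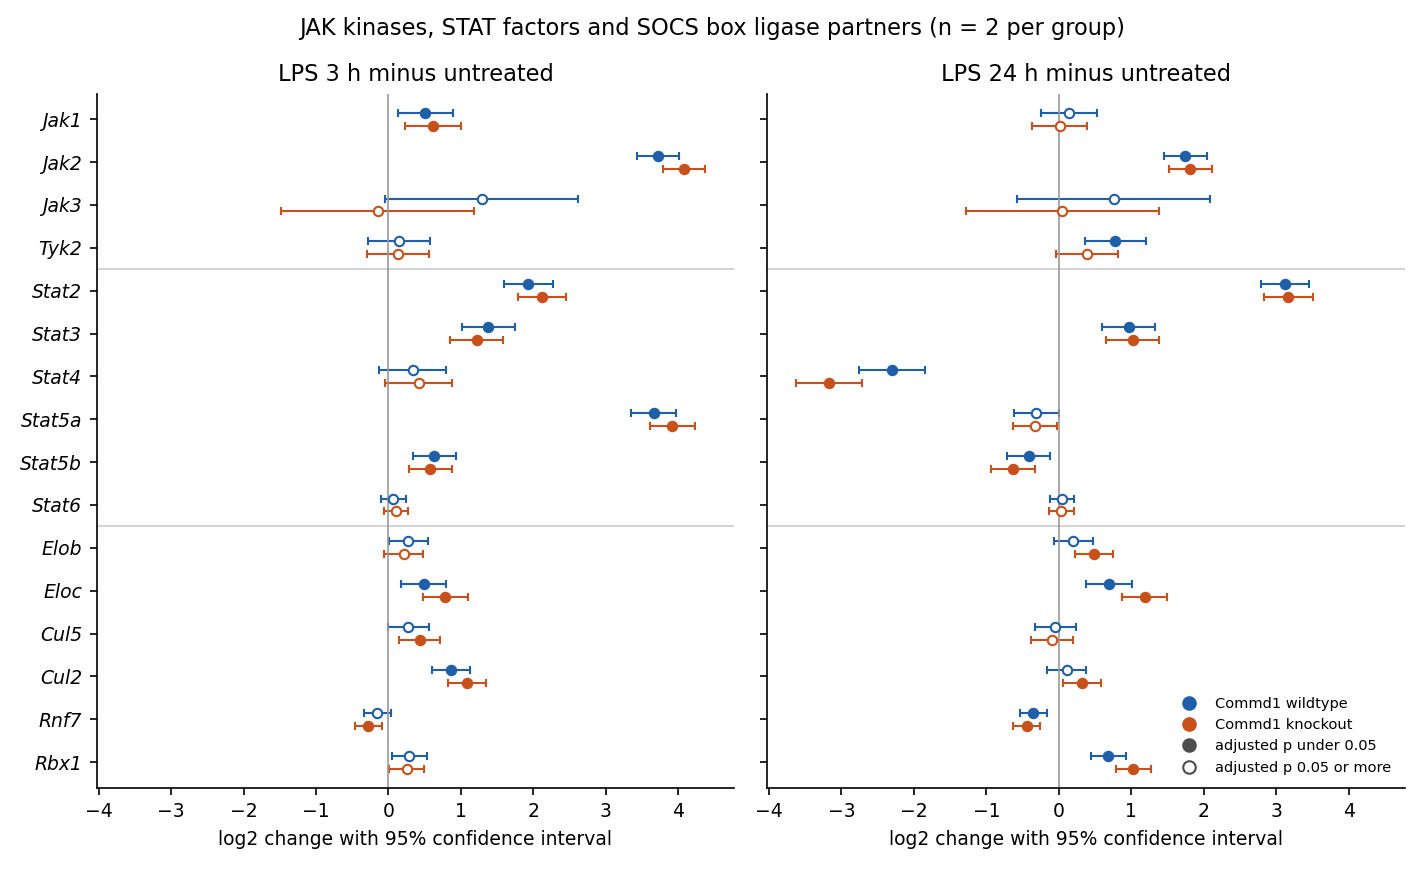
Change of the JAK kinases, 6 STAT factors and the SOCS box ligase partners after 3 h (left) and 24 h (right) of LPS, as log2 treated minus untreated on the horizontal axis, in wildtype (blue) and knockout (orange) cells, with 95% confidence intervals from limma (n = 2 per group) and filled points for adjusted p under 0.05. Jak2 (3.72) and Stat5a (3.66) rise most in wildtype cells at 3 h, Stat4 falls at 24 h (-2.30), and the ligase partners stay within 1 log2 unit in wildtype cells, with Cul2, Eloc and Rbx1 just above it in knockout cells (1.08 at 3 h, 1.18 and 1.03 at 24 h).

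Among 11 other negative regulators of the pathway, 4 rose and 3 fell in wildtype cells at 3 h, and 5 rose and none fell at 24 h. Usp18, which blocks the interferon receptor, rose by 5.66 ± 0.18 and 6.27 ± 0.18, and the phosphatase gene Ptpn2 by 1.67 ± 0.10 and 0.62 ± 0.10. The adaptor gene Sh2b3 and the STAT3 inhibitor gene Pias3 fell at 3 h, by 0.86 and 0.72 on the log2 scale.

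Of 13 genes of cytokines that signal through these receptors 11 were measured, and in wildtype cells 10 rose and 1 fell at 3 h, where 23.2% of all genes were called higher and 23.4% lower. Il6 was at least 2351-fold higher at 3 h and at least 13.5-fold higher at 24 h in wildtype cells, and Ifnb1 at least 377-fold and at least 322-fold, since neither was well above background untreated. Csf2, which encodes GM-CSF, was at least 16.9-fold higher at 3 h in wildtype and at least 3.62-fold in knockout cells, and was not well above background untreated or at 24 h in either genotype. Il10 rose by 4.46 ± 0.17 and 3.76 ± 0.17 and was 0.70 higher in untreated knockout cells (adjusted p = 0.0454). The only ligand gene that fell at 3 h was Il4, by 0.84 on the log2 scale.

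Of 25 receptor genes, 9 rose and 5 fell at 3 h and 9 rose and 4 fell at 24 h in wildtype cells, and 6 were higher and 1 lower in untreated knockout than wildtype cells, where 6.84% of all genes were called in either direction. Il4ra rose by 2.96 ± 0.26 at 3 h and was 1.73 higher in untreated knockout cells (adjusted p = 0.0139). Il2rg was 2.74 ± 0.11 higher at 24 h. Lifr, which pairs with gp130, was lower by -3.49 ± 0.33 in wildtype cells at 24 h, where 1 of 2 arrays was well above background, and Igf1r was lower by -2.63 ± 0.33. Of 8 other STAT5-responsive genes, 4 rose and 1 fell in wildtype cells at 3 h and 6 rose and none fell at 24 h. Ccnd2, a cyclin gene, rose by 4.69 ± 0.27 and 2.78 ± 0.27 and the kinase gene Pim1 by 2.49 ± 0.17 and 1.47 ± 0.17, so both were above untreated at 24 h, where Cish and Socs2 were not called in wildtype cells. Pim3 fell by 1.14 on the log2 scale at 3 h.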

How the data were processed

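Each of the 12 macrophage samples was hybridised to its own single-colour array. Per the file headers, the deposited scanner files hold processed intensity values, corrected for background within each array and not scaled between arrays, made with Agilent Feature Extraction 10.7.3.1 per the submitters' processing notes. The authors' deposited value table holds log2 values and matches log2 processed intensity minus a constant per array (the median of each column lay between -4.50 and -4.30), and its dim probes are at a floor. Control and outlier spots were left out, spots of a probe averaged, log2 values scaled to each array's 75th percentile, and a gene read from its probe with the highest mean. Of 39429 probes, 78.6% matched a RefSeq symbol by accession, symbol or synonym; the rest kept the file's name. Probes well above background on both arrays of a group were kept.

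limma 3.58.1 in R 4.3.3 (lmFit and eBayes, 11 contrasts over all 12 arrays, without the mouse as a block, two-sided, Benjamini-Hochberg over all genes tested) gave every p, and was checked on simulated data. An array value carries no read depth, so the 2 samples per group limit the precision. The labels name the same mice at each time, and deviations of the same mouse correlated at r = 0.12 to 0.35, so the fit was repeated with the mouse as a block. Each mouse held the same array position on every slide, so mouse and position cannot be told apart in that correlation. Fold bounds set the bright group's mean against the lowest signal well above background on each dim array. Alternatives covered background, scaling, filter, probe choice, the value table, groups fitted alone and leaving out each array. Members, gene lists and tests were chosen with earlier results of these data known. From each list, the genes named are the 2 with the largest called change each way in wildtype cells, plus Stat3, Stat5a, Stat5b, Jak2, Cul5, Elob, Eloc, Ifnb1, Il6, Il10 and Csf2. The 3 genes with the highest Pearson r are named for each member. Some genes of the lists are not reported here.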

Additional observations from a re-analysis of the deposited data

Results flagged for a closer look

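The response of Cish to 24 h of LPS differed between genotypes by -1.65 on the log2 scale (knockout minus wildtype), by limma's interaction test (adjusted p = 0.0299). Its adjusted p ranged from 0.025 to 0.084 when single arrays were left out, and it was 0.0758 without a filter on dim probes and 0.091 with the groups fitted alone. Its part that comes from untreated cells is a gap of 1.27 and its part at 24 h a gap of -0.38. The cause was not tested.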

How the results depend on the processing

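No called result changed sign under any alternative run; 26 values that were called in neither fit did. The numbers of members called by LPS time in each genotype stayed within 1.5 times those given. With normexp, 2 members were called in the 3 h genotype comparison, 2 in each interaction, and 275 genes over the mouse means. Without a filter, 0 were called in the 3 h comparison and 0 in the 24 h interaction. With only probes above background on all arrays the interactions called 1 at 3 h and 2 at 24 h, and the deposited table called 2 at 24 h. With groups compared fitted alone, which leaves fewer samples for the spread, 0 were called in each genotype comparison and in the 24 h interaction. The mouse as a replicate block, random or fixed, gave 2 at 24 h, and changed no other member's call than those given for Socs1, Socs2 and Socs5. Leaving out 1 array, where the lone sample left is assumed to vary like the other groups, gave 0 to 2 members in the 3 h comparison and 0 to 1 in each interaction. Of the single-gene values from leaving out 1 array, 1027 kept their side of the threshold, 10 passed and 19 missed it, and of those from other alternatives 824, 23 and 9. With normexp the median change at 24 h over all genes was 0.18 in wildtype and 0.22 in knockout cells, in place of -0.04 and -0.07. Slide could not be fitted as a block, since each time lies on 1 slide. The cause of these shifts was not tested.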

Other observations

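A probe outside the rule, named for Gm9449, a predicted gene similar to Socs6, was well above background on all 12 arrays. It read 0.06 and -0.33 in untreated wildtype, -1.77 and -1.73 at 3 h and -1.19 and -1.23 at 24 h. In knockout samples it read -0.22 and -0.21, then -1.25 and -1.47, then -1.29 and -1.86. Whether this probe also binds Socs6 RNA was not tested. A further probe for a Socs2 transcript and one for another predicted gene like Socs6 were not well above background on any array.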
